A study of Rattus norvegicus with 4 samples.

Results

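Genes of the cell cycle and DNA replication were examined in the liver of WNIN/Ob rats, a strain of Wistar origin with obese and lean phenotypes. The 53 genes were chosen by name, from cyclins and their kinases to replication enzymes and proteins of the mitotic spindle. The choice was made with earlier results of these data known. For 49 of them the array carried a probe set annotated with that gene alone, out of 14506 genes measured in this way. Mcm3, Mcm4, Mki67 and Cenpf had none and are not analysed here. Whole liver was taken from male rats aged 4 months, 4 of the obese and 4 of the lean phenotype of the same strain, all fed stock diet without restriction and given no treatment. RNA of the 4 obese rats formed an obese pool and RNA of the 4 lean rats a lean pool, and each pool was hybridised to 2 arrays, called original and technical replicate in the labels. The phenotype is all the labels give of either group, with no genotype. Each phenotype is thus 1 pool, so no test across animals was possible, and no p-value or standard error across animals is given. Every difference compares these pools only.

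A cell that divides passes from G1, in which D-type and E-type cyclins activate kinases that release E2F transcription factors, into S phase, in which licensed origins fire and DNA is copied. It then enters mitosis under cyclin B and Cdk1, and the spindle checkpoint and the anaphase-promoting complex time the parting of the chromosomes. Most hepatocytes of adult rat liver rest outside the cycle, and transcripts of S phase and mitosis are known to be low there until the liver regenerates.

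Levels are log2 intensities minus the median of all probe sets of the same array, so that 0 is the array's median probe set, and differences are obese minus lean. Values of a pool are given for the original array and then for the technical replicate array. A gene was called 1.5-fold higher or lower on 3 conditions: a difference of at least a factor of 1.5, a gap of 0.25 log2 units or more between the closest obese and lean arrays, and a mean in the higher pool that reached the median level of all genes (0.74). Folds carry their range over the 4 pairs of an obese and a lean array, which covers measurement error only. Levels of different probe sets are not set against each other as amounts of RNA.

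The labelled tissue was checked against marker genes. The 10 hepatocyte markers were high in both pools, such as Alb, which encodes albumin, at 9.03 and 8.97 in the obese pool against 8.84 and 8.97 in the lean pool, and had a median difference of 0.10. Both obese arrays lay above both lean arrays for 7 of the 10 and below both for 0. Among genes at or above the median level these shares were 35.9% and 13.8%. The largest difference of the 10 was 0.43 (Apoa1). All 12 skeletal muscle markers were called lower in the obese pool, with a median of -6.21 and a summed intensity of 443 and 456 in the obese pool against 31026 and 32365 in the lean pool. Acta1, the actin of skeletal muscle, stood at 2.21 and 2.08 in the obese pool and 8.31 and 8.37 in the lean pool. The lean pool therefore held skeletal muscle transcripts that its liver label does not name, on both of its arrays, and every difference below is against that pool. The part of these transcripts, and of those of the other cell types given at the end, in the cell cycle differences was not tested. In whole tissue, fewer cells of a type and less RNA per cell cannot be told apart. Array medians lay between 25.7 and 27.7 in intensity.

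Most mitotic genes and many genes of DNA synthesis were higher in the obese pool, with both obese arrays above both lean arrays for 16 of 18 genes of mitosis (cyclins A and B, Top2a, kinases, checkpoint, anaphase-promoting complex and spindle) and for 12 of 18 in licensing, fork and deoxynucleotide supply. Their median differences were 0.60 and 0.34. Of the 18 genes of mitosis 17 lay below the median level of all genes and 1 was called 1.5-fold higher. In the other 18 these counts were 12 and 3. The G1 cyclins Ccnd2, Ccnd3 and Ccne2 and the kinase inhibitors Cdkn1a and Cdkn1b had differences between -0.12 and 0.21. The remaining G1 cyclins, Ccnd1 and Ccne1, and the remaining inhibitor, Cdkn3, had differences of 0.74, 0.44 and 1.13. For each of them both obese arrays lay above both lean arrays. Rrm2, Top2a, Tyms, Ccnd1 and Mcm2 were the 5 members called 1.5-fold higher, and 0 of the 49 were called lower. Over all genes 2.32% were called higher and 2.35% lower. Of the 5, Rrm2 and Top2a met the level condition through the obese pool alone. Their means were 1.44 and 0.90 there and -0.17 and -0.66 in the lean pool. Both obese arrays lay above both lean arrays for 35 members and below both for 2 (Ccnd3 and Ube2c), against 28.0% and 15.5% of all genes. The differences had a median of 0.44, beside 0.05 over all genes, and 44 of the 49 were above 0, as were 61.6% of all genes. With no further condition, 15 members had an excess of 1.5-fold or more (2.94% of all genes) and 0 a deficit of that size (2.98%). The lowest difference was -0.27 (Cdk2) and the highest 1.60 (Rrm2).

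**Figure D1:**
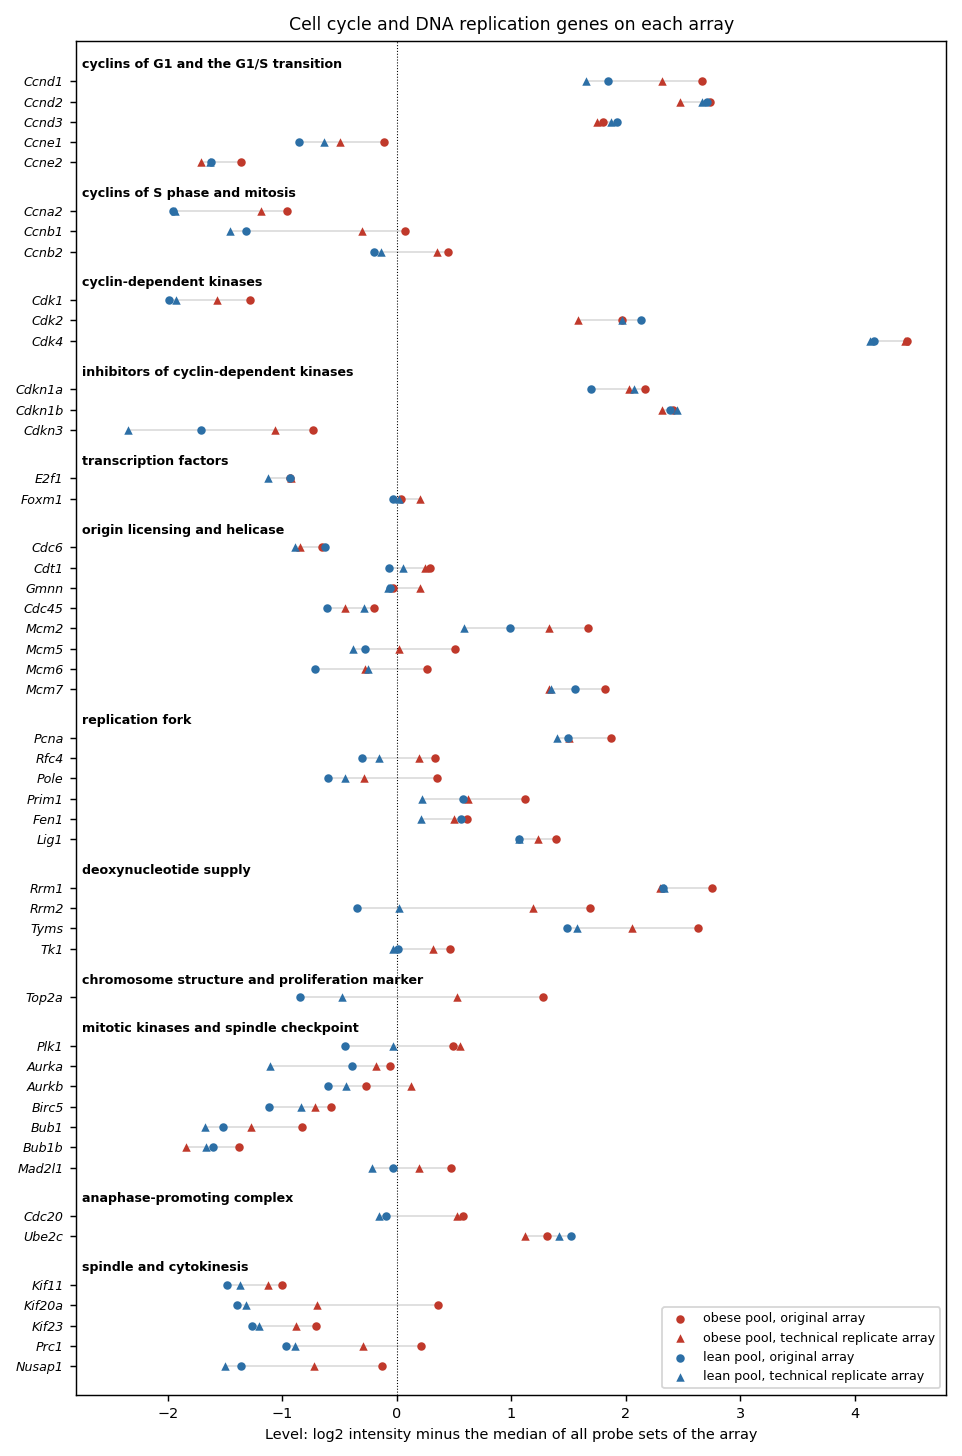
Levels of the 49 measured genes on each array, in log2 intensity minus the array's median probe set (x axis), grouped by role. Red points are arrays of the obese pool and blue points arrays of the lean pool, with circles for original and triangles for technical replicate arrays; for 35 genes both red points lie right of both blue points.

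The upward separation was seen mostly in dim members. Of the 35 members whose mean level lay below the median of all genes, both obese arrays were above both lean arrays for 29 and below both for 0, against 20.1% and 17.3% of all genes in that range. All 35 had differences above 0 (54.5% of genes in that range), with a median of 0.47. Of the 14 brighter members 6 were separated upward and 2 downward, against 35.9% and 13.8% of the brighter genes, and their median difference was 0.21, beside 0.10 for genes of that range. Of these 14, 9 had differences above 0 (68.7% of the brighter genes). An excess of 1.5-fold or more, with no further condition, was found in 12 of the 35 dim members (1.42% of all dim genes) and in 3 of the 14 brighter ones (4.45%).

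Detection calls were not used here, so the 53 measured olfactory receptor genes, which liver is not known to express, were taken after the values had been seen as a guide to the level of probe sets without signal. Their median level was -2.16 and their 95th percentile -0.41. The obese level exceeded that percentile for 37 of the 49 members and the lean level for 27. Over all 14506 genes these counts were 9816 and 9881. For 12 members neither pool exceeded it, and only their differences are given, without a fold. For the 10 members above it in the obese pool alone, a fold has no firm size. The olfactory receptor genes themselves had a median difference of -0.08, and both obese arrays lay above both lean arrays for 17.0% of them and below both for 24.5%.

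**Figure D2:**
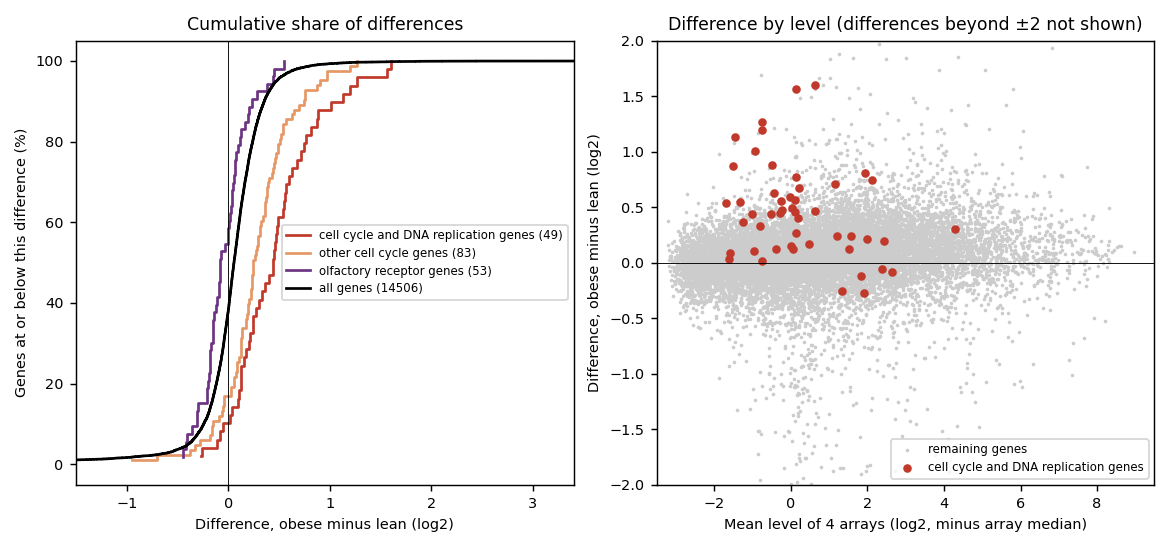
Left, the share of genes (y axis, percent) at or below each difference (x axis, obese minus lean, log2) for the 49 cell cycle and DNA replication genes, 83 other cell cycle genes, 53 olfactory receptor genes and all 14506 genes; the line of the 49 genes runs to the right of the line of all genes. Right, the difference of each gene (y axis) by its mean level over the 4 arrays (x axis, log2 minus array median), in which the members with the largest differences, Rrm2 and Top2a, sit at levels of 0.64 and 0.12.

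The promoters of 4 members that were higher in the obese pool are printed because regulated transcription of such genes is known to run through short elements in this region. E2F proteins act on late G1 and S phase genes, and the cell cycle genes homology region, CHR, together with CCAAT boxes acts on mitotic genes. RefSeq promoters (assembly GRCr8) were found for 39 of the 49 members, and Rrm2 and Ccnd1 were not among them. Shown are the 3 other members called 1.5-fold higher and Ccnb1, the next by size of difference, as the 250 bases before the annotated start, 5′ to 3′ on the gene's strand. Capitals mark matches to E2F words (TTTCCCGC, TTTCGCGC, TTTGCCGC or TTTGGCGC), CHR words (TTTGAA or TTCGAA) and CCAAT, each searched on both strands. They lie on the minus strand at chr10:84473094-84473343 (Top2a), chr9:120776084-120776333 (Tyms), chr4:122918095-122918344 (Mcm2) and chr2:33655226-33655475 (Ccnb1).
Top2a: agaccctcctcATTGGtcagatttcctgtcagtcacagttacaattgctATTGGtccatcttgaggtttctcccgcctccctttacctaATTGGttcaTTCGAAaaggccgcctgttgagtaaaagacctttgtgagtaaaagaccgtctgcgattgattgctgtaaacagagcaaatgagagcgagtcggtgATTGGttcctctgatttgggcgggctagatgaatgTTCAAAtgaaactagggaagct
Tyms: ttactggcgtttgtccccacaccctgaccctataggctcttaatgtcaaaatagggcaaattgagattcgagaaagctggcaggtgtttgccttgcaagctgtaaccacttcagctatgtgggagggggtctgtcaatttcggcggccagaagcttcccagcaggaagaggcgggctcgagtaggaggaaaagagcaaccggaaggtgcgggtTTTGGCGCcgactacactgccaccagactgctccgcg
Mcm2: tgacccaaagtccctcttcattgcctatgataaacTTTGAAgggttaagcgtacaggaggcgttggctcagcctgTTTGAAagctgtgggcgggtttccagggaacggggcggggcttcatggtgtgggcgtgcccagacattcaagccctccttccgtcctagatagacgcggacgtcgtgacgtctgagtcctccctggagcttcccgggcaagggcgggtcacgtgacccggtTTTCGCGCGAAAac
Ccnb1: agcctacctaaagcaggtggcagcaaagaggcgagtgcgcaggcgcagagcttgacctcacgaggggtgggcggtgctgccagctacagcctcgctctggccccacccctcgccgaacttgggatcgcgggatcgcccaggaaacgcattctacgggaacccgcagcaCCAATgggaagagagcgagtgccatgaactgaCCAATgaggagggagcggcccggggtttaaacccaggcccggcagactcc
Top2a held 4 CCAAT boxes and 2 CHR words, Tyms 1 E2F word, Mcm2 2 CHR words and 2 E2F words that overlap each other, and Ccnb1 2 CCAAT boxes. An E2F word occurred in 15.4% of the 39 member promoters, in 2.5% of the 11951 promoters of genes on the array, and in 1.81% of all 27457 promoters, at the same length. CHR words occurred in 30.8% of the member promoters, in 15.3% of those of genes on the array and in 17.3% of all promoters. CCAAT occurred in 61.5% of the member promoters, in 35.6% of those of genes on the array and in 34.3% of all promoters. Of the 6 members with an E2F word, Mcm2, Mcm5, Mcm6 and Mcm7 are subunits of 1 helicase, and the others were Cdk1 and Tyms. A match is a string of letters and not a measured site.

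Among the enzymes of deoxynucleotide supply, all 4 had differences above 0, 2 were called 1.5-fold higher and the median was 0.60. Over all genes 61.6% were above 0 and 2.32% were called higher. Rrm2, the small subunit of ribonucleotide reductase that limits the enzyme to S phase, had levels of 1.69 and 1.19 in the obese pool and -0.35 and 0.02 in the lean pool, a 3.04-fold excess (2.25 to 4.11). Both obese arrays lay more than 1 log2 unit above both lean arrays. A second, dimmer probe set of Rrm2 had a difference of 1.41. Tyms, which makes thymidylate, stood at 2.63 and 2.05 in the obese pool against 1.49 and 1.57 in the lean pool and was 1.75-fold higher (1.39 to 2.21). Its obese arrays were 0.58 apart, the wider spread of the pair. Tk1, the thymidine kinase of the salvage route, had a difference of 0.40 without overlap. Rrm1, the large subunit of ribonucleotide reductase, had the smallest difference of the group, with 2.75 and 2.30 in the obese pool against 2.32 and 2.33 in the lean pool. Its pools overlapped, because the obese technical replicate array lay below both lean arrays. A second probe set of Rrm1 had a difference of 0.002, at a mean level of -1.48, under the olfactory receptor percentile.

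Top2a, the topoisomerase that untangles sister chromosomes, had levels of 1.28 and 0.53 in the obese pool and -0.84 and -0.48 in the lean pool. The difference was 1.56 (1.00 to 2.12 over the array pairs), and no fold is given because the lean level lay under the olfactory receptor percentile. Its 2 obese arrays differed by more than its 2 lean arrays did, as the plot of levels shows.

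All 3 cyclins of S phase and mitosis were separated upward, as were 20.1% of all genes below the median level. None of the 3 reached the level the rule asks for. Ccnb1, the cyclin that drives entry into mitosis, stood at 0.07 and -0.31 in the obese pool and -1.32 and -1.46 in the lean pool, with a difference of 1.27 (1.01 to 1.53 over the array pairs). Ccna2, which acts in S phase and G2, had -0.96 and -1.19 in the obese pool and -1.96 and -1.94 in the lean pool, a difference of 0.87. Ccnb2 had the smallest difference of the 3, with 0.45 and 0.35 in the obese pool against -0.20 and -0.14 in the lean pool. That is a 1.48-fold excess (1.40 to 1.57), and its second probe set had a difference of 0.53.

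The spindle and cytokinesis genes, all below the median level, were separated upward in 5 of 5, with a median difference of 0.88. Of all genes below that level 20.1% were separated upward. Kif20a, a kinesin of the late spindle, had levels of 0.36 and -0.69 in the obese pool and -1.40 and -1.32 in the lean pool, a difference of 1.19. Its obese arrays lay 1.06 apart, the widest spread within a pool among the 49 members, so the size of this difference hangs on the array used. Nusap1, a microtubule-bundling protein, and Prc1, which bundles the central spindle, had differences of 1.01 and 0.88. Kif23, a kinesin of the midbody, had a difference of 0.44. Kif11, the motor that separates spindle poles, had the smallest, at -0.998 and -1.13 in the obese pool against -1.48 and -1.37 in the lean pool.

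Of the 7 mitotic kinase and checkpoint genes, all below the median level, 6 were separated upward and 1 overlapped, with a median of 0.46. The upward share of all genes below that level was 20.1%. Plk1, a kinase that acts from mitotic entry to cytokinesis, led the group with 0.49 and 0.55 in the obese pool against -0.45 and -0.04 in the lean pool, a 1.70-fold excess (1.44 to 2.01). Aurka and Aurkb, the Aurora kinases of the spindle pole and of the chromosomal passenger complex, had differences of 0.63 and 0.44. Birc5, the survivin subunit of that passenger complex, had a difference of 0.33. The checkpoint genes Bub1 and Mad2l1 had differences of 0.54 and 0.46. Bub1b, the checkpoint kinase-like protein BubR1, did not follow them, at -1.37 and -1.84 in the obese pool against -1.61 and -1.67 in the lean pool, and its arrays overlapped.

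The 2 members that serve the anaphase-promoting complex went opposite ways. Cdc20, its activator, had levels of 0.58 and 0.52 in the obese pool and -0.09 and -0.16 in the lean pool, a 1.60-fold excess with a narrow range (1.53 to 1.66). Ube2c, its ubiquitin-conjugating enzyme, had 1.31 and 1.12 in the obese pool and 1.52 and 1.42 in the lean pool. With a difference of -0.26, Ube2c was 1 of the 2 members whose obese arrays both lay below both lean arrays.

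**Figure D3:**
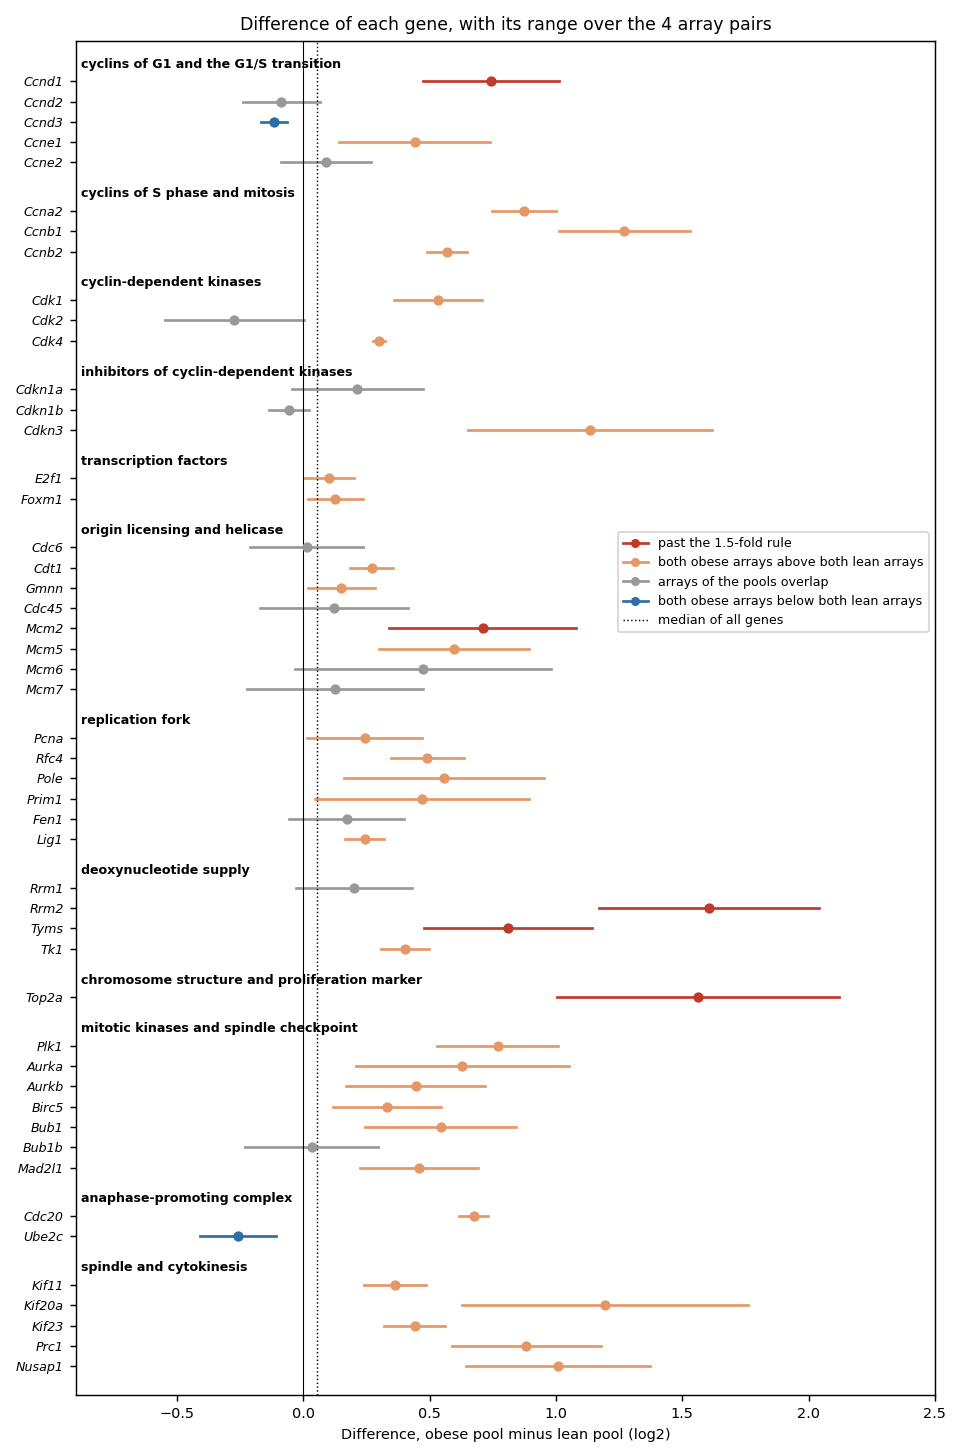
Difference of each of the 49 genes (x axis, obese minus lean, log2) as a point with its range over the 4 pairs of arrays as a bar, grouped by role. Bars to the right of 0 belong to genes whose obese arrays both lie above both lean arrays; the dotted line is the median of all genes at 0.05.

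Genes that license origins and form the replicative helicase had a median difference of 0.21. Of the 8, 4 were separated upward and 0 downward, against 28.0% and 15.5% of all genes. Mcm2, a subunit of the helicase ring, was called 1.5-fold higher, at 1.67 and 1.33 in the obese pool against 0.99 and 0.59 in the lean pool (1.64-fold, 1.27 to 2.12). It was not called with an offset of 16 added to the intensities. The other measured subunits were Mcm5, Mcm6 and Mcm7, with differences of 0.59, 0.47 and 0.12, and the last 2 overlapped. Cdt1, the licensing factor that loads the helicase, and its inhibitor geminin (Gmnn) had differences of 0.27 and 0.15. Cdc45, which joins the helicase when origins fire, had a difference of 0.12 and overlapped. Cdc6, the partner of Cdt1 in loading, had the smallest difference of all members above 0, at -0.65 and -0.84 in the obese pool against -0.63 and -0.89 in the lean pool.

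The replication fork genes were above 0 in 6 of 6 and separated upward in 5, against 61.6% and 28.0% of all genes, but none was called. Pole, the catalytic subunit of the leading-strand polymerase, had the largest difference, with 0.35 and -0.29 in the obese pool against -0.60 and -0.45 in the lean pool. The clamp loader subunit Rfc4 and the primase subunit Prim1 followed at 0.49 and 0.47, and the clamp Pcna and the ligase Lig1 both had 0.24. Prim1 and Pcna were separated by only 0.04 and 0.01. Fen1, the nuclease that trims Okazaki fragments, had the smallest difference, with 0.61 and 0.50 in the obese pool against 0.56 and 0.21 in the lean pool, and overlapped.

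Among the G1 cyclins, Ccnd1 stood apart. It had levels of 2.67 and 2.32 in the obese pool and 1.85 and 1.65 in the lean pool, a 1.67-fold excess (1.39 to 2.02). Ccnd1 is the D-type cyclin known for its induction in regenerating liver. The related Ccnd2 and Ccnd3 had differences of -0.09 and -0.12, with Ccnd3 at 1.80 and 1.75 in the obese pool against 1.92 and 1.87 in the lean pool. Ccnd3 was the second member separated downward, by 0.06 at the nearest arrays. Of the E-type cyclins that act with Cdk2, Ccne1 had a difference of 0.44 without overlap and Ccne2 one of 0.09 with overlap.

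Of the cyclin-dependent kinases, the mitotic kinase Cdk1 had the largest difference, at -1.28 and -1.57 in the obese pool against -1.99 and -1.93 in the lean pool, a difference of 0.53. Cdk4, the partner of D-type cyclins, had closely matched arrays within each pool, 4.45 and 4.44 in the obese pool against 4.16 and 4.13 in the lean pool, and was 1.23-fold higher (1.21 to 1.25). Cdk2, which drives entry into S phase, had the lowest difference of all members (-0.27), with 1.97 and 1.59 in the obese pool against 2.13 and 1.97 in the lean pool. The obese original and the lean technical replicate array of Cdk2 lay at nearly the same level, so its pools were not separated.

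The 3 kinase inhibitors split. Cdkn3, a phosphatase that acts on Cdk2 and Cdk1 and is itself transcribed in dividing cells, had -0.73 and -1.06 in the obese pool and -1.71 and -2.35 in the lean pool, a difference of 1.13. Cdkn1a, the p21 inhibitor induced by p53, had 2.17 and 2.02 in the obese pool against 1.70 and 2.07 in the lean pool. Cdkn1b, the p27 inhibitor of resting cells, had 2.41 and 2.31 in the obese pool against 2.39 and 2.45 in the lean pool. Cdkn1a and Cdkn1b overlapped between the pools.

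Transcripts of the transcription factors E2f1 and Foxm1, which drive S phase and mitotic genes, differed by little. E2f1 had -0.93 and -0.92 in the obese pool against -0.94 and -1.12 in the lean pool, so that the nearest arrays were 0.0046 apart. Foxm1 had 0.03 and 0.20 in the obese pool and -0.03 and 0.02 in the lean pool, a difference of 0.13. Both obese arrays were above both lean arrays for both genes.

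The arrays of the obese pool did not give the same values for these genes. The original array lay above the technical replicate array for 44 of the 49 members in the obese pool, with a median gap of 0.26, and for 70.6% of all genes, with a median gap of 0.15. In the lean pool it lay above for 26 of 49 members (median gap 0.01) and for 42.6% of all genes. Without the obese original array the median difference of the members was 0.29, beside 0.00 over all genes, and Rrm2 was the only member called, where 1.51% of all genes were called higher. The obese technical replicate array then lay above both lean arrays for 35 members and below both for 9, against 38.5% and 38.0% of all genes. With the obese technical replicate array left out, the median was 0.53, beside 0.11 over all genes. Prim1 then joined the 5 called genes, but 5.47% of all genes were called higher in that setting. It also joined them without the lean original array, where 2.35% of all genes were called higher. Mcm2 was not called without the lean technical replicate array, and 4 members were then separated downward, against 23.7% of all genes.

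**Figure D4:**
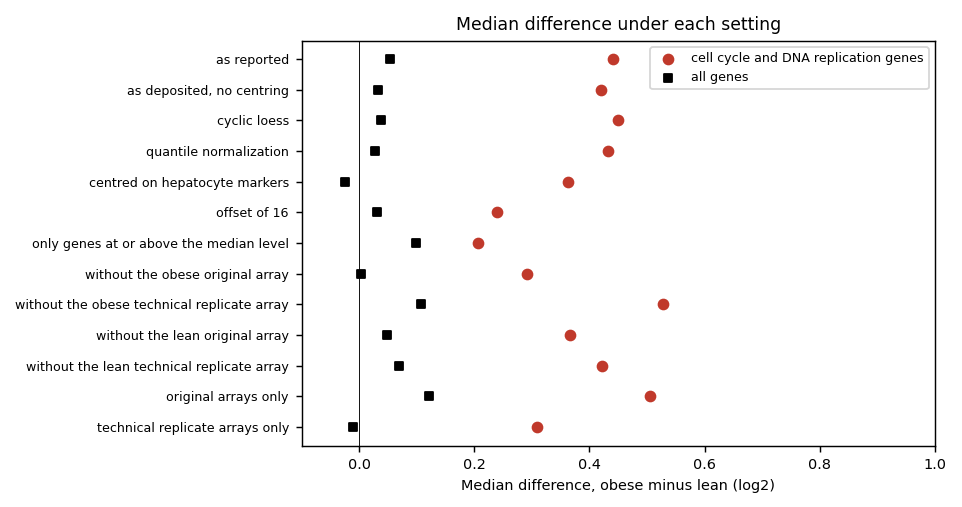
Median difference (x axis, obese minus lean, log2) of the 49 genes (red circles) and of all genes (black squares) under each processing setting and with single arrays left out (y axis). The red circles run from 0.21, where only the 14 brighter members are used, to 0.53, and lie to the right of the squares in every row.

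A wider list of 105 other cell cycle genes, also chosen with earlier results of these data known, had a median difference of 0.24. Of the 105, 83 were measured. Of the 83, 3 were called higher and 2 lower, shares near the 2.32% and 2.35% of all genes. Both obese arrays lay above both lean arrays for 43 and below both for 5, against 28.0% and 15.5% of all genes. The 5 were Pola2 (polymerases), Rbl2 (pocket proteins), Cdc25b, Cdkn1c (other kinase inhibitors) and Ccng1. The kinetochore and passenger genes (median 0.54, 7 of 9 separated upward) and the spindle motor, condensin and cytokinesis genes (median 0.57, 9 of 11) had the largest medians. Most genes of both groups were dim. Of the 9, 3 exceeded the olfactory receptor percentile in the obese pool and 2 in the lean pool. Of the 11, 4 did so in each pool. The E2F, pocket protein and MuvB factors had the smallest median, 0.06, with 2 of 9 separated upward, a share no higher than that of all genes. Origin recognition and helicase loading or activation genes had a median of 0.20 and polymerases, clamp loader and single-strand binding genes one of 0.23, with 6 and 3 of 13 separated upward, the second share also no higher than that of all genes. Chromatin copying genes had a median of 0.36 (3 of 5), other deoxynucleotide enzymes 0.18 (2 of 4), and other kinase inhibitors 0.20 (2 of 4).

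Chek1, the kinase that guards stalled replication forks, had the largest difference on the wider list, at 1.36 and 0.74 in the obese pool against -0.33 and -0.10 in the lean pool (2.40-fold, 1.79 to 3.21). Rpa1, the large subunit of the single-strand binding protein, had 3.41 and 3.02 in the obese pool against 2.27 and 2.41 in the lean pool (1.84-fold, 1.53 to 2.21). Both were called higher, Chek1 meeting the level condition through the obese pool alone, whereas Cdc25b, a phosphatase that activates Cdk1, was called lower. Cdc25b stood at 2.29 and 2.31 in the obese pool against 3.22 and 3.28 in the lean pool, a difference of -0.96. The Cdc25, Wee1 and checkpoint kinase genes had a median of 0.30, with 5 of 9 separated upward. Among 6 measured p53-responsive genes the median was 0.30, with 1 called in each direction. Phlda3, an inhibitor of Akt signalling, had 2.67 and 2.49 in the obese pool against 1.90 and 2.00 in the lean pool, a difference of 0.63. Ccng1, cyclin G1, had 4.65 and 4.44 in the obese pool against 5.29 and 5.22 in the lean pool, a difference of -0.71.

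Markers of further cell types also differed between the pools, though the bile duct median of 0.05 was that of all genes. Centring each array on the 10 hepatocyte markers in place of all probe sets gave a median of 0.36 for the members, with 30 separated upward and 5 downward, beside 19.2% and 25.4% of all genes.

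Among the other 6 cell type lists, 1 marker, an erythroid one, had both obese arrays above both lean arrays. Over all genes 28.0% were separated upward and 15.5% downward, and 2.35% were called lower. Downward separation was found in 17.3% of genes below the median level and 13.8% of the brighter genes. The 11 macrophage markers had a median difference of -0.22, with 0 separated upward and 5 downward, and a summed intensity of 3491 and 2878 in the obese pool against 3731 and 3875 in the lean pool. Their median level was 3.54 and 2.99 in the obese pool against 3.38 and 3.57 in the lean pool. By that median only the obese technical replicate array lay below both lean arrays. Cd14, a macrophage receptor for bacterial lipopolysaccharide, had a difference of -0.30. The 10 lymphocyte markers had a median of -0.17 (0 upward, 6 downward), with sums of 272 and 260 in the obese pool against 308 and 285 in the lean pool. Only 4 of the 10 exceeded the olfactory receptor percentile in each pool, and 9 lay below the median level of all genes. The 6 endothelial markers had a median of -0.18 (0 upward, 3 downward), with sums of 871 and 772 in the obese pool against 973 and 963 in the lean pool. Their median level was 2.01 and 1.59 in the obese pool against 1.94 and 1.99 in the lean pool. Here too only the obese technical replicate array lay below both lean arrays by the median level. The 10 stellate cell markers had a median of -0.34, with 4 called lower and sums of 1558 and 1401 in the obese pool against 2543 and 2684 in the lean pool. Des, the intermediate filament desmin, which skeletal muscle also makes, had the lowest difference of these (-4.03), at 0.36 and 0.55 in the obese pool against 4.34 and 4.63 in the lean pool, whereas Col3a1 had a difference of -0.20. The others called lower were Dcn, Col1a1 and Lox, at -1.88, -0.95 and -0.78. Pdgfrb and Acta2 had differences above 0, at 0.14 and 0.02. The 6 erythroid markers had a median of -0.29, with 2 called lower and sums of 3414 and 3351 in the obese pool against 6200 and 6456 in the lean pool. Hbb, a haemoglobin chain, had a difference of -0.88. The 5 bile duct markers had a median of 0.05 (0 upward, 1 downward), with sums of 172 and 166 in the obese pool against 165 and 173 in the lean pool. No marker is at 0, as the lowest intensity in the table is 2.31.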

How the data were processed

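Pooled liver RNA was hybridised to Rat Gene ST arrays (Affymetrix), with 1 RNA pool for each phenotype and 2 arrays for each pool, from 100 ng of pooled RNA. The authors deposited intensities, not logs (2.31 to 14288), made with RMA, which corrects background, normalises between arrays and summarises probes, per the submitters' processing notes. The step to a linear scale, the software version and the genome build are not given in the sources used here. From each intensity the log2 was computed and the array's median over 29214 probe sets (medians of 25.7 to 27.7 in intensity) subtracted. Differences of dim probe sets can be understated on this scale, and the number of arrays limits the precision.

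The platform annotation named 1 gene for 15310 probe sets and several for 323, and 13581 were not listed; only the first kind was used, after a check of gene identifiers against GRCr8 that changed 0 symbols. For genes with several probe sets (3 members) that with the highest mean was used. The members, lists and rules were chosen with earlier results of these data known. The arrays of a pool are technical replicates of 1 sample, so no test was run and calls are by size and separation. Named with values on all arrays are members past the 1.5-fold rule, the extremes of each role group, the inhibitors and both transcription factors. Alternatives covered scaling (cyclic loess with limma 3.58.1), an offset of 16, the level filter, the threshold, the choice of probe set and arrays left out. The calculation was tested on simulated data with Python 3.11.15.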

Additional observations from a re-analysis of the deposited data

How the results depend on the processing

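Of 700 recomputed differences of single members, 679 moved by less than the spread between arrays, 21 moved by more and 0 called ones changed sign; 35 members stayed above 0 and 3 below 0 under every alternative. The count of members called higher was 14 with no level filter (2.78% of all genes). It was 11 with the olfactory receptor percentile as filter, which was chosen after seeing the data (2.62%). An offset of 16 left 4, without Mcm2 (1.74%). The count was 3 among the brighter members (4.29% of brighter genes) and 2 at a factor of 2 with a gap of 0.5 (0.593% of all genes). With an array left out it was 1 to 6 (1.51% to 5.47%). The median over the members was 0.24 with an offset of 16 and 0.21 among the 14 brighter members, 6 of which were separated upward, and 0.29 to 0.53 with an array left out. The count separated downward was 4 as deposited and with the offset, 5 with cyclic loess, quantile normalization or hepatocyte centring, and 2 to 9 with an array left out. The median of the other cell cycle genes was 0.14 with the offset and 0.15 to 0.38 with an array left out.

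The labels do not pair arrays across pools, and the array differences of the pools correlated at -0.09 over probe sets. With same-named arrays as a replicate block (values only), where separation is only the sign of 1 difference, the original pair gave a median of 0.51 for the members, 45 separated upward and 4 downward (66.4% and 33.6% of all genes, whose median was 0.12), and 0.42 for the other cell cycle genes. The technical replicate pair gave 0.31, 37 and 12 (48.2% and 51.8% of all genes, median -0.01), and 0.15. Marker medians in the original and then the technical replicate pair were 0.21 and 0.0125 (hepatocyte), -0.10 and -0.64 (stellate), 0.13 and -0.15 (bile duct), -0.10 and -0.49 (erythroid), and -6.07 and -6.32 (muscle). Other moved marker medians were -5.54 (muscle, offset), -0.88 (erythroid, brighter genes), and 0.0252 (hepatocyte) and -0.0301 (bile duct) with hepatocyte centring; with an array left out the stellate median was -0.61 to -0.15 and the bile duct median -0.10 to 0.10. Causes were not tested. The dimness of most members, 35 of 49 below the median level, limits these values.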
